A study of Mus musculus with 9 samples.

Results

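In 20 of the 14771 genes measured, cells of the SUR group lay beyond both other groups within every replicate number, by the rule below. In 6 of these, SUR still overlapped LPS or CON libraries of another number. The genes were chosen on CPM, the count of a gene divided by the total of its library and multiplied by 1000000. A gene was taken if its mean CPM over the 9 libraries was at least 5 and if, within each of replicate numbers 1, 2 and 3, its SUR value was at least 1.3 times, or at most 1/1.3 of, both the LPS and the CON value. Of the 9693 genes with that mean level, 9115 were eligible, because the rule leaves out gene names that begin with Egr, Fos, Jun, Dusp, Klf, Slc, Zfp, Irf, Trim, Rab, Oas or Ifi and a few single genes. In 17 of the 20 genes SUR lay above both other groups, and in 3 it lay below both. The choice rests on the SUR values themselves, so every difference of these genes between SUR and another group is given here as a description with no test.

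The RNA came from MH-S cells, a mouse alveolar macrophage line, sequenced in 3 groups of 3 libraries. SUR libraries carry the treatment label suramin, and the protocol describes 200 µM suramin given for 4 h only together with 1 µg/ml LPS. LPS libraries come from cells given 1 µg/ml LPS alone for 4 h, and CON libraries from cells given only culture medium. No group is described as suramin without LPS, so a change made by suramin alone and one made by suramin in the presence of LPS cannot be told apart. The labels do not state that replicates were separate cultures, and the p-values below reflect the spread among the libraries, which could be technical.

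LPS, a component of the outer membrane of Gram-negative bacteria, is sensed by the receptor TLR4 and its co-receptor CD14 and switches on NF-kappaB, MAP kinase and interferon programmes in macrophages. Suramin is a large polyanionic drug. It is known to block many purinergic receptors, to keep several growth factors from their receptors and to accumulate in lysosomes. In RNA from whole cultures, a change in the number of cells that express a gene and a change in its RNA per cell cannot be told apart.

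Library totals ran from 15729402 to 16675250 counts. Of 16 macrophage markers in the table, 12 had a mean of at least 1 CPM, and their summed level was 5848 to 8637 CPM in SUR, 6195 to 8903 CPM in LPS and 5924 to 8394 CPM in CON. Marco, Siglecf and Chil3, which mark alveolar macrophages in the lung, averaged 0.00671, 0.0542 and 0.0137 CPM over all libraries. These genes were thus near 0 in a line labelled with that cell type. Pparg, from the same macrophage list, was also below 1 CPM, at a mean of 0.203 CPM. Mrc1, Mertk and Itgax of that list reached 1 CPM, with means of 144 CPM for Mrc1 and 10.1 CPM for Itgax. Of the markers of other cells that were in the table, 0 of 3 epithelial, 0 of 3 fibroblast, 0 of 2 lymphocyte and 0 of 6 neutrophil markers reached 1 CPM. Of 5 endothelial markers only Vwf did, with a summed level for the list of 94.5 to 247 CPM in SUR, 89.3 to 232 CPM in LPS and 92.9 to 239 CPM in CON, while Pecam1 and Cdh5 averaged 0.0336 and 0.0955 CPM. The libraries numbered 1 stood apart in every group.

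Genes outside both other groups in this way were few in SUR. The same rule with LPS in the place of SUR gave 313 genes above and 641 below both other groups, and with CON in that place 8 above and 119 below. These counts rest on library totals, on which the median gene lay lower in LPS than in SUR (log2 ratio of SUR over LPS 0.112). They were not repeated with another scaling. The 20 genes were 0.219% of those eligible. The rule's name filter left out 7 further genes, all with SUR above both: Fos, Map3k8, Egr1, Slc25a40, Trim7, Klf2 and Zfp217. Among these, the immediate-early transcription factor genes Fos and Egr1 averaged 72.5 and 87.7 CPM in SUR, 26.7 and 41.0 CPM in LPS, and 23.7 and 12.9 CPM in CON.

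**Figure D1:**
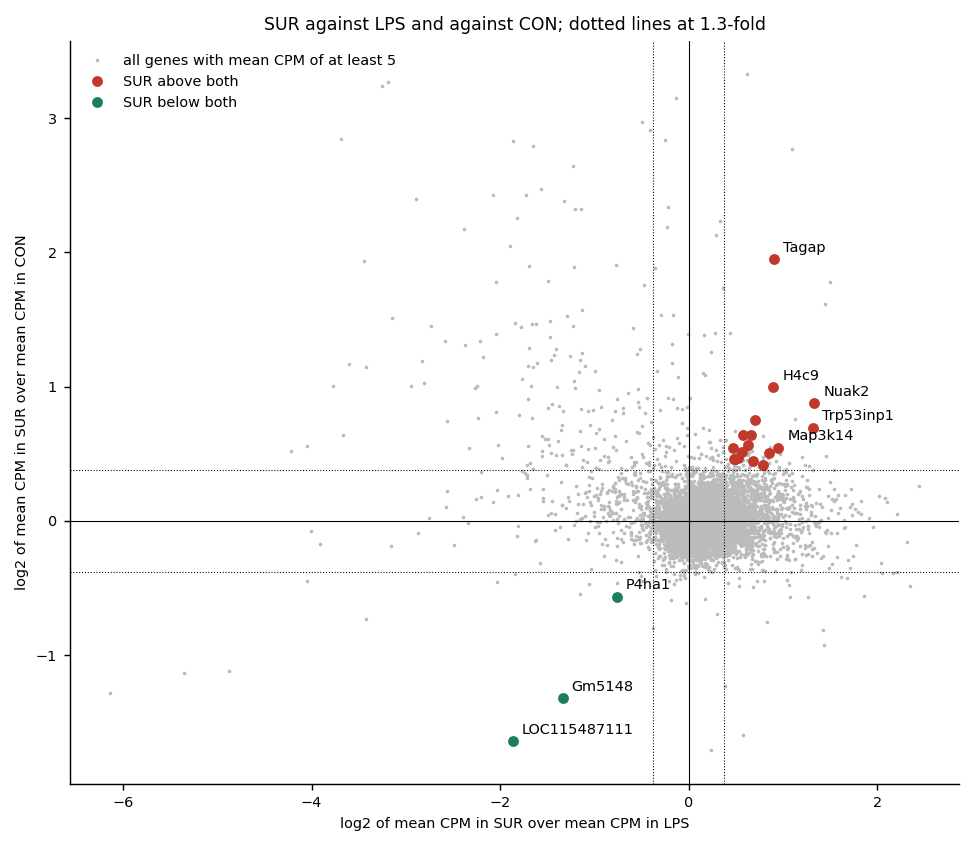
Each grey point is 1 of the genes with a mean CPM of at least 5, placed by the log2 ratio of its mean CPM in SUR to LPS (horizontal) and in SUR to CON (vertical); red points are the 17 genes above both groups and green points the 3 below both, and dotted lines mark 1.3-fold. Tagap is the red point farthest up, at a SUR to CON ratio of means of 3.87, and most of the red points lie close to the dotted lines; grey points beyond both lines failed the fold in at least 1 replicate number or were left out by name.

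Among the 17 genes above, the ratio of mean CPM had a median of 1.61 for SUR over LPS and 1.46 for SUR over CON. Ratios within replicate numbers ran from 1.31 to 2.66 against LPS and from 1.31 to 7.84 against CON. Over all genes with a mean of at least 5 CPM, the median log2 ratio was 0.112 for SUR over LPS and -0.018 for SUR over CON on this scale, so part of each excess over LPS is shared with the median gene. When CPM were scaled by edgeR's TMM factors instead, 10 of the 17 genes above and the 3 below still met the rule. Fam214a, Hivep2, Tns1, Arid5b, Runx2, Bard1 and Sipa1l2 no longer did. With the authors' FPKM, Hivep2, Bard1 and Shld2 fell out.

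In 14 of the 20 genes no SUR library overlapped any LPS or CON library, and in 6 the groups overlapped. Over all 11281 genes tested by edgeR's quasi-likelihood test, 17.2% were called between SUR and LPS and 0.425% between SUR and CON (adjusted p under 0.05), or 45.3% and 11.5% with the replicate number as a block. These shares are background only, and they count test calls, not overlap. The share of all genes without overlap is not given here. Nothing is read from the 14 genes, because the rule used the same contrasts and favours genes without overlap. The overlapping genes were H4c9, Fam214a, Hivep2, Tns1, Cd276 and Bard1. In these, SUR exceeded its numbered partners without exceeding every library.

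**Figure D2:**
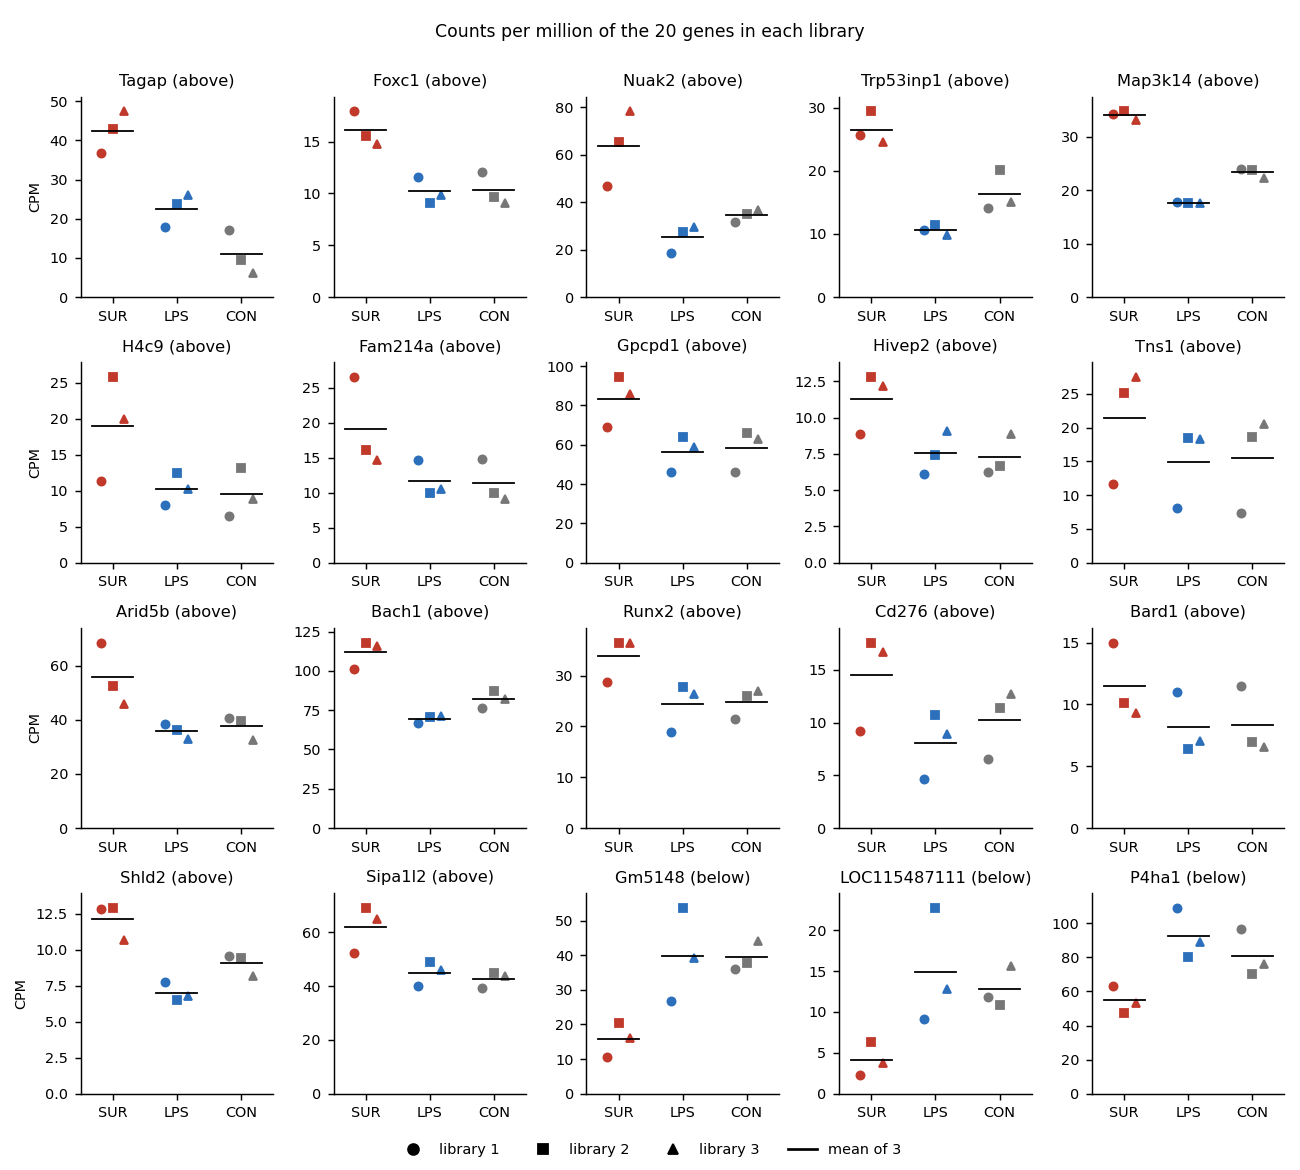
CPM (vertical axis, from 0) of each of the 20 genes in SUR, LPS and CON, with 1 symbol per library (circle, square and triangle for libraries 1, 2 and 3) and a line at the mean of 3. SUR symbols lie above their numbered LPS and CON partners in the 17 genes marked above and below them in the 3 marked below. Library 1 is the lowest of its group in every group in Nuak2, H4c9, Gpcpd1, Hivep2, Tns1, Bach1, Runx2, Cd276, Sipa1l2 and Gm5148. It is the highest of its group in every group in Foxc1, Fam214a, Arid5b, Bard1 and P4ha1.

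Among the 17 genes above, the largest smallest paired ratio belonged to Tagap, a gene known from T cell activation (gene ID 72536; GRCm38 chromosome 17, 7926000 to 7946352). Tagap had 36.7, 42.9 and 47.4 CPM in SUR libraries 1, 2 and 3, 18.0, 23.8 and 26.0 CPM in LPS, and 17.2, 9.56 and 6.04 CPM in CON. Every SUR library was higher than every other library, LPS lay in the middle, and CON 1 stood well above CON 2 and CON 3. Its ratio of means was 1.87 for SUR over LPS and 3.87 for SUR over CON, and the smallest of its 6 paired ratios was 1.80. Tagap was the only gene above both groups that still met the rule at a fold threshold of 1.5.

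Reads of Tagap could be shared with a near copy. Its transcript and that of Tagap1 were 99.024% identical over 2152 aligned bases, and how the authors' counting assigned reads that match both is not given in the sources used here. A stretch of 60 bases of the 2 transcripts (GENCODE annotation of GRCm38, chromosome 17 for both) is shown because so few bases part them; capitals mark the 2 differing bases.
Tagap: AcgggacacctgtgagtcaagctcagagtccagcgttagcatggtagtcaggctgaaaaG
Tagap1: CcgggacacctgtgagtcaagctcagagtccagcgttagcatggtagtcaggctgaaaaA
Tagap1 itself was flat, with 30.3, 25.5 and 26.0 CPM in SUR, 27.1, 23.6 and 24.4 CPM in LPS, and 29.5, 30.0 and 27.9 CPM in CON. The sum of the pair, which does not depend on how shared reads were split between them, was 67.0, 68.3 and 73.4 CPM in SUR, 45.1, 47.4 and 50.4 CPM in LPS, and 46.7, 39.6 and 34.0 CPM in CON. SUR lay above all other libraries in the sum too, with a smallest paired ratio of 1.43.

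**Figure D3:**
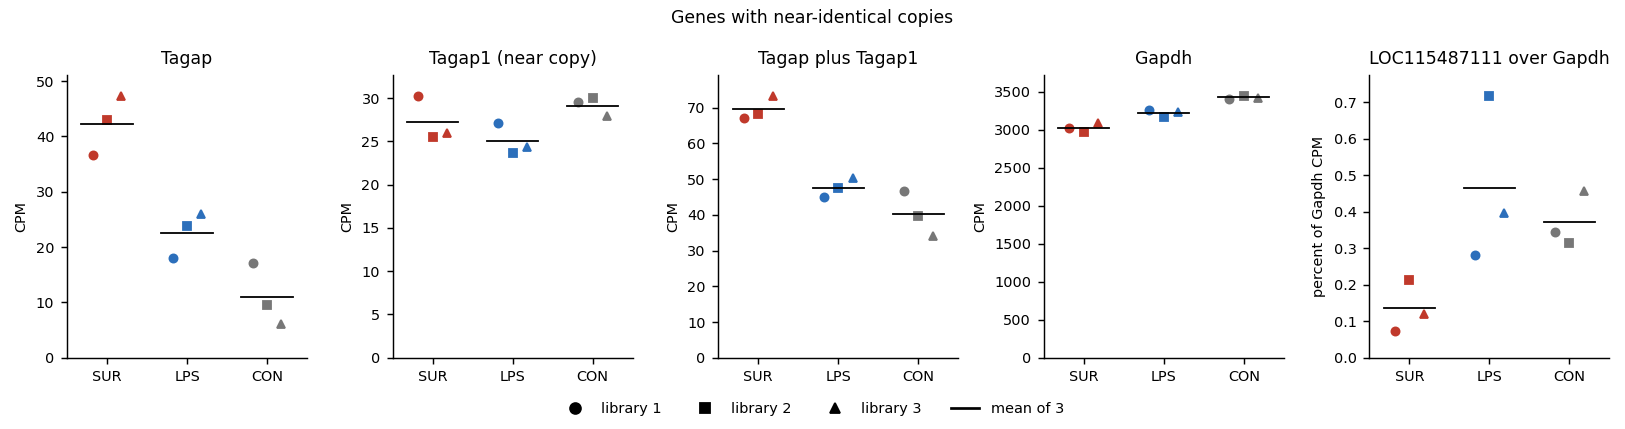
The first 3 panels give CPM of Tagap, of its near copy Tagap1 and of their sum in SUR, LPS and CON; the last 2 give CPM of Gapdh and LOC115487111 as a percent of Gapdh. Symbols are libraries and lines the mean of 3; Tagap1 stays between 23.6 and 30.3 CPM while the sum of the pair is highest in the 3 SUR libraries.

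By smallest paired ratio Foxc1, described further below, came next at 1.476. Genes of kinases and stress signalling, which followed it closely, are described first. Nuak2, which encodes a kinase related to AMPK (gene ID 74137; chromosome 1, 132316125 to 132333488), had 46.9, 65.6 and 78.3 CPM in SUR, 18.7, 27.5 and 29.4 CPM in LPS, and 31.8, 35.1 and 36.9 CPM in CON. LPS was the lowest group and SUR the highest, with no overlap. The ratio of means was 2.52 for SUR over LPS and 1.84 for SUR over CON.

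Map3k14 encodes NIK, the kinase that starts the non-canonical NF-kappaB pathway (gene ID 53859; chromosome 11, 103219764 to 103270756). It had 34.3, 34.7 and 33.2 CPM in SUR, 17.7, 17.6 and 17.6 CPM in LPS, and 24.0, 23.8 and 22.2 CPM in CON. Its libraries varied little within a group, so the 3 groups formed 3 separate levels. The ratio of means was 1.93 for SUR over LPS and 1.46 for SUR over CON. Map3k14 and Tagap were the only genes above for which every SUR library was at least 1.3 times every LPS and CON library.

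Trp53inp1, which encodes a p53-inducible nuclear protein with a role in stress responses and autophagy (gene ID 60599; chromosome 4, 11156441 to 11174379), showed the same order of groups. It had 25.7, 29.4 and 24.5 CPM in SUR, 10.7, 11.4 and 9.87 CPM in LPS, and 14.1, 20.1 and 15.0 CPM in CON. The groups did not overlap. The ratio of means was 2.49 for SUR over LPS and 1.62 for SUR over CON, so in Nuak2, Map3k14 and Trp53inp1 the distance from LPS was the larger one.

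Of the 17 genes above, 5 (29.41%) carry a transcription factor annotation in the deposited table, against 7.77% of all genes with a mean of at least 5 CPM and 5.49% of those left once the name families of the rule are removed. They were Foxc1, Hivep2, Arid5b, Bach1 and Runx2. This feature was looked at after the genes were known and was not tested. Bach1, a repressor of heme oxygenase and other oxidative stress genes (gene ID 12013; chromosome 16, 87698954 to 87733346), had 101, 118 and 116 CPM in SUR, 66.6, 70.5 and 71.2 CPM in LPS, and 76.5, 87.1 and 82.1 CPM in CON. Its SUR libraries were above all others, with ratios of means of 1.61 over LPS and 1.37 over CON.

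Foxc1, a forkhead factor known from eye and vessel development (gene ID 17300; chromosome 13, 31806646 to 31812476), had 17.9, 15.5 and 14.8 CPM in SUR, 11.6, 9.09 and 9.87 CPM in LPS, and 12.1, 9.69 and 9.09 CPM in CON. LPS and CON lay at one level and SUR above it, with a ratio of means of 1.58 over LPS and 1.56 over CON. Runx2, the master factor of bone-forming cells, followed the same shape at 28.8, 36.5 and 36.5 CPM in SUR, 19.0, 27.7 and 26.3 CPM in LPS, and 21.4, 25.9 and 26.9 CPM in CON. Arid5b, which encodes a DNA-binding protein with an ARID domain, had 68.5, 52.4 and 45.9 CPM in SUR, 38.6, 36.4 and 32.8 CPM in LPS, and 40.8, 39.6 and 32.5 CPM in CON. Both lay clear of the other groups on column totals, Runx2 by a narrow margin, yet missed the rule with TMM scaling.

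Hivep2 encodes a large zinc finger protein that binds kappaB-like DNA. It had 8.90, 12.8 and 12.2 CPM in SUR, 6.14, 7.44 and 9.07 CPM in LPS, and 6.22, 6.63 and 8.90 CPM in CON. SUR 1 lay below LPS 3 and level with CON 3, and the gene met the rule neither with TMM scaling nor with FPKM. The distances of Hivep2 thus rest on the pairing by replicate number.

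Of the genes of chromatin and DNA repair, Bard1 and Shld2 lay near the threshold and H4c9 did not. H4c9, 1 of the genes for histone H4 (gene ID 319158), had 11.4, 25.8 and 19.9 CPM in SUR, 7.94, 12.4 and 10.3 CPM in LPS, and 6.51, 13.2 and 8.84 CPM in CON. Each SUR library exceeded its numbered partners, although SUR 1 lay below LPS 2 and CON 2. H4c9 is uncertain because histone H4 genes resemble each other; its transcript was 96.571% identical to that of Hist1h4n over 350 bases, a gene at a mean of 3.1 CPM here.

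Bard1, which encodes the partner of the repair protein BRCA1, had 15.0, 10.1 and 9.30 CPM in SUR, 11.0, 6.42 and 7.03 CPM in LPS, and 11.5, 6.94 and 6.55 CPM in CON. Shld2, which encodes a subunit of shieldin, the complex that protects broken DNA ends from resection, had 12.8, 12.9 and 10.7 CPM in SUR, 7.76, 6.48 and 6.79 CPM in LPS, and 9.60, 9.44 and 8.16 CPM in CON. The SUR libraries of Shld2 stood above all others, whereas those of Bard1 did so only within replicate numbers. Bard1 was higher in library 1 of every group, by 0.61 in SUR, 0.67 in LPS and 0.72 in CON on the log2 scale relative to libraries 2 and 3.

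The remaining genes above include proteins of adhesion, the cell surface and lipid turnover. Gpcpd1, which encodes a phosphodiesterase that splits glycerophosphocholine, had 69.2, 94.5 and 86.1 CPM in SUR, 46.0, 63.9 and 59.0 CPM in LPS, and 46.1, 66.1 and 62.9 CPM in CON. Every SUR library was above the rest, with ratios of means of 1.48 over LPS and 1.43 over CON. Fam214a had 26.5, 16.1 and 14.6 CPM in SUR, 14.6, 9.98 and 10.5 CPM in LPS, and 14.8, 10.0 and 9.09 CPM in CON. Only its SUR 1 and SUR 2 libraries exceeded every LPS and CON library.

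Cd276, which encodes the co-inhibitory surface molecule B7-H3, had 9.25, 17.6 and 16.7 CPM in SUR, 4.69, 10.7 and 8.88 CPM in LPS, and 6.52, 11.4 and 12.7 CPM in CON. Tns1, which encodes the focal adhesion protein tensin 1, had 11.6, 25.2 and 27.5 CPM in SUR, 8.13, 18.4 and 18.3 CPM in LPS, and 7.30, 18.6 and 20.6 CPM in CON. In log2, SUR lay above LPS by a mean of 0.52 in Tns1 and 0.87 in Cd276, and above CON by 0.51 in both. Library 1 of Tns1 differed from the others by more than the groups did. In Cd276 that difference was about as wide as that between SUR and LPS. On the log2 scale library 1 of Tns1 lay below libraries 2 and 3 by -1.15 in SUR, -1.13 in LPS and -1.36 in CON, and that of Cd276 by -0.86 in SUR, -0.98 in LPS and -0.84 in CON. These were the 2 genes at least 0.5 lower in library 1 of every group, and Bard1 was the 1 gene at least 0.5 higher. The part of the replicate number in the group differences of these genes was not tested beyond the comparison within numbers.

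Sipa1l2, of a family of GTPase-activating proteins for Rap, had 52.3, 69.0 and 64.8 CPM in SUR, 40.0, 48.9 and 45.8 CPM in LPS, and 39.1, 44.9 and 43.6 CPM in CON. With a smallest paired ratio of 1.306 it was the gene just inside the threshold, next to Shld2 at 1.308. Just outside lay Acvr2b, an activin receptor gene, at 28.0 CPM in SUR, 11.5 CPM in LPS and 21.1 CPM in CON, which missed the fold of 1.3 by less than its last printed digit, and Lrguk at 1.298. Acvr2b was thus as far from LPS as the leading genes and failed on the side of CON.

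The 3 genes below both groups share fewer features. P4ha1, the catalytic alpha subunit of the prolyl 4-hydroxylase that matures collagen and a known target of hypoxia signalling (gene ID 18451; chromosome 10, 59323197 to 59373304), had 63.3, 47.5 and 53.4 CPM in SUR, 109, 80.1 and 89.3 CPM in LPS, and 96.5, 70.2 and 76.1 CPM in CON. Every SUR library was lower than every other library, and the ratio to the numbered partner was 0.58, 0.59 and 0.60 against LPS and 0.66, 0.68 and 0.70 against CON. The next genes below, outside the threshold, were Etv5, an ETS transcription factor gene, at a smallest paired fold of 1.278, and Jmjd6 at 1.242.

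The other genes below both groups are predicted models with near copies. Gm5148 (gene ID 381438) had 10.7, 20.4 and 16.2 CPM in SUR, 26.7, 53.6 and 39.3 CPM in LPS, and 36.1, 37.7 and 44.2 CPM in CON. LOC115487111 had 2.23, 6.34 and 3.69 CPM in SUR, 9.17, 22.7 and 12.8 CPM in LPS, and 11.8, 10.9 and 15.6 CPM in CON. In both, all SUR libraries lay below all others, and the ratio of means of SUR was 0.40 to LPS and 0.40 to CON for Gm5148, and 0.27 and 0.32 for LOC115487111.

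Gm5148 was 99.289% identical over 422 bases to C330021F23Rik, a gene at a mean of 0.161 CPM. The transcript of LOC115487111 was looked up by gene ID or by a GENCODE gene name assigned by hand. Its near copies included Gm3839 (98.298% identical) and Gm10358 (97.872%), neither of them among the genes measured. LOC115487111 was 98.085% identical over 470 bases to Gapdh, the glycolytic gene that is often used as a loading control. The 60 bases below (LOC115487111 on chromosome 1, Gapdh on chromosome 6, GENCODE annotation of GRCm38) show that likeness, with the 3 differing bases in capitals.
LOC115487111: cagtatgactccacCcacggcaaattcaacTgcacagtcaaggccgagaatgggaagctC
Gapdh: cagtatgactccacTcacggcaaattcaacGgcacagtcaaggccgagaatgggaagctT
Gapdh had 3029, 2965 and 3088 CPM in SUR, 3261, 3168 and 3230 CPM in LPS, and 3409, 3451 and 3422 CPM in CON. LOC115487111 amounted to 0.0737%, 0.214% and 0.120% of it in SUR, 0.281%, 0.718% and 0.396% in LPS, and 0.345%, 0.315% and 0.456% in CON. Less than 1% of Gapdh reads would therefore equal the whole level of LOC115487111. The stretch aligned to Gapdh was 470 bases, however, whereas the locus of LOC115487111 spans 10031 bp. Where its reads lie along the locus was not examined, and the part of misassigned reads in its values was not tested.

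Per length of transcript, the genes ran over a wide range of levels. Mean FPKM in SUR was highest for H4c9 at 141, followed by Gpcpd1 at 24.6, Nuak2 at 22.5 and Bach1 at 20.1, and lowest for LOC115487111 at 0.42 and Hivep2 at 1.15. The genes above also had long loci and long 3′ UTRs, as a description: the median gene span was 52741 bp, against 26704 bp for all genes with a mean of at least 5 CPM, and the median 3′ UTR 1554 bases in the 16 genes with one, against 1004. The AU-rich motif TATTTAT, known from short-lived mRNAs, was present in the 3′ UTR of 7 of these 16 genes (43.8%) and of 28.1% of all genes at that level. These shares were not adjusted for the longer 3′ UTRs of the genes above, and a longer sequence has more places for a match. This motif was chosen after the genes were known.

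The comparison of LPS with CON did not enter the rule directly, but the rule bears on it: SUR had to lie beyond both groups, so genes in which SUR lies between a changed LPS level and CON could not be chosen. The quasi-likelihood test of edgeR, with p-values adjusted by Benjamini-Hochberg over 11281 genes, put Tagap higher in LPS than in CON (log2 fold change 1.18, SE 0.324, adjusted p = 0.0346). Map3k14 was lower in LPS than in CON (log2 fold change -0.27, SE 0.0683, edgeR adjusted p = 0.0257). These were 2 of the 20 genes (10%), whereas 18.3% of all tested genes were called, 8.98% higher and 9.36% lower. The share among the 20 genes was below the background, and because of that limit nothing is read from it. The other 18 had log2 fold changes between -0.48 and 0.37.

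Same-numbered libraries of the 3 groups deviated together, and the fit with the replicate number as a block called more genes. With the block, Tagap, P4ha1 and Sipa1l2 were higher in LPS than in CON and Map3k14, Nuak2 and Trp53inp1 lower, 6 of 20 genes (30%) against 41.8% of all tested genes. Under the block the log2 fold change was 0.33 for P4ha1 (SE 0.0389, adjusted p = 4.69e-05) and 0.21 for Sipa1l2 (SE 0.0523, adjusted p = 0.00689). It was -0.33 for Nuak2 (SE 0.0976, adjusted p = 0.0183) and -0.48 for Trp53inp1 (SE 0.0904, adjusted p = 0.00151). Tagap and Map3k14 kept their calls with the block, at adjusted p = 0.00658 and 0.00512. The edgeR fit without the block gave these 4 further genes adjusted p-values of 0.187 (P4ha1), 0.315 (Sipa1l2), 0.409 (Nuak2) and 0.0579 (Trp53inp1).

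Both calls made without the block were lost in several of the fits that left out 1 library. Within replicate numbers 1, 2 and 3 the log2 ratio of Tagap in LPS to CON was 0.06, 1.31 and 2.11, and the difference was thus nearly absent in the pair that holds CON 1. Without CON 1 the log2 fold change was 1.68 (edgeR adjusted p = 0.00214). The call was lost without CON 2, CON 3, LPS 2, LPS 3, SUR 2 or SUR 3, at adjusted p = 0.0534 to 0.121, with log2 fold changes of 0.89 to 1.20. For Map3k14 the log2 ratios within replicate numbers 1, 2 and 3 were -0.44, -0.44 and -0.34, with no single pair standing apart. It lost its call without CON 1, CON 2, LPS 1, LPS 2, LPS 3, SUR 1 or SUR 2, at edgeR adjusted p = 0.0524 to 0.084. Its log2 fold change stayed between -0.30 and -0.24 in all fits with 1 library left out. Map3k14 also lost its call with no filter on low counts (edgeR adjusted p = 0.068) and without all libraries numbered 1 (0.0823).

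Among the genes called in either fit, Map3k14, Nuak2, Trp53inp1 and P4ha1 had SUR on the far side of CON from LPS. Map3k14, Nuak2 and Trp53inp1 were lowest in LPS and highest in SUR, the last 2 called between LPS and CON only with the block. In Tagap and Sipa1l2 the groups followed the order SUR, LPS, CON, with Sipa1l2 called only with the block. P4ha1, called only with the block, had the reverse order, highest in LPS and lowest in SUR. For Foxc1, Gpcpd1, Tns1, Arid5b, Runx2 and Bard1 the sign between LPS and CON turned with the scaling: the mean CPM was lower in LPS on column totals, while the TMM-scaled log2 fold change was 0.07 to 0.12, and none of them was called.

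**Figure D4:**
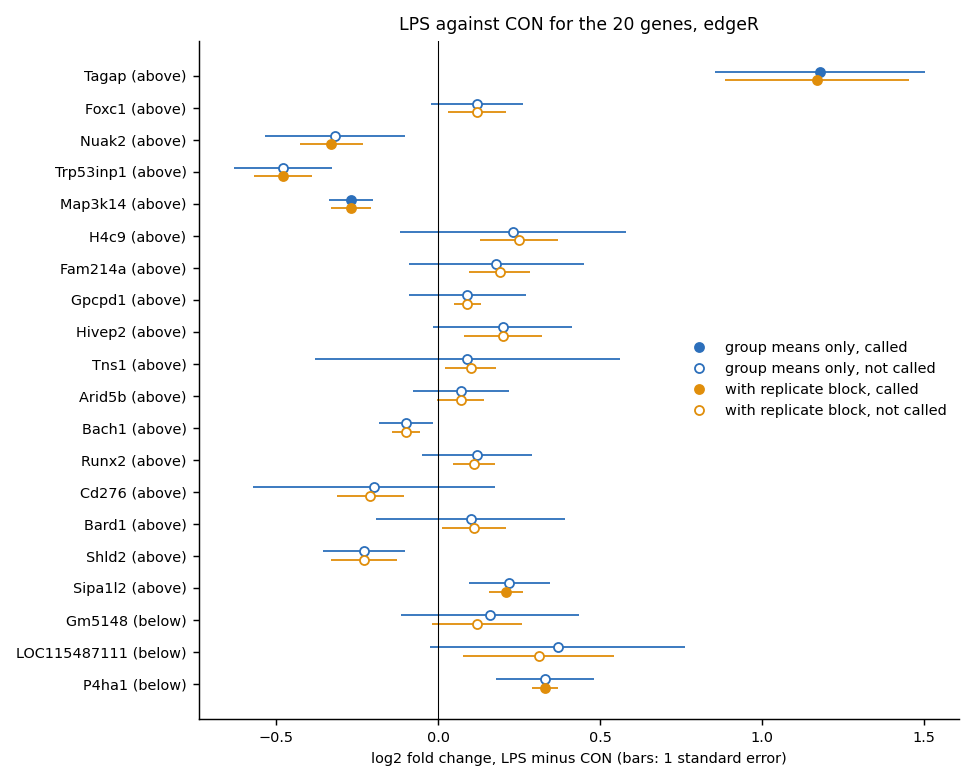
Log2 fold change of LPS minus CON from edgeR for the 20 genes, without (blue) and with (orange) the replicate block; bars are 1 standard error and filled points are called at an adjusted p under 0.05. Tagap at 1.18 is the one large difference, Map3k14 at -0.27 the other blue filled point, and all other blue points lie between -0.48 and 0.37.

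The 20 genes were set beside 26 lists of pathway and cell state genes, chosen with earlier results of these data known. Of these lists 24 held none of the 20 genes. Trp53inp1 was the only one among p53 targets and P4ha1 the only one in the list of glycolysis and hypoxia response. The 3 comparisons share their libraries, so the list counts below are given side by side and no overlap between them is read.

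The other genes of the glycolysis and hypoxia list included several that were lower in SUR than in LPS. Of the 24 tested other than P4ha1, 0 were higher and 8 lower between SUR and LPS, with a median log2 fold change of -0.24, against 9.29% higher and 7.93% lower of all tested genes; the block gave 2 and 17, upper-quartile scaling 0 and 4 (median -0.15), and FPKM 1 and 3 (median -0.09). Slc2a1, the gene of glucose transporter GLUT1, had 133, 104 and 104 CPM in SUR, 277, 202 and 219 CPM in LPS, and 179, 125 and 133 CPM in CON, a log2 fold change of -1.16 for SUR against LPS (adjusted p = 0.00203, edgeR). Pfkl, the liver type of phosphofructokinase, had 73.2, 75.4 and 81.7 CPM in SUR, 107, 104 and 120 CPM in LPS, and 104, 87.2 and 109 CPM in CON (log2 fold change -0.65, adjusted p = 0.0022, edgeR). Pfkl was lower in SUR than in every LPS and CON library, as P4ha1 was. Hif1a, the oxygen-regulated subunit of HIF-1, had 141, 123 and 114 CPM in SUR, 165, 170 and 168 CPM in LPS, and 133, 114 and 112 CPM in CON (log2 fold change -0.55, adjusted p = 0.00409, edgeR).

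Between SUR and CON, edgeR called 0 of these 24 genes (7 at an unadjusted p under 0.05), DESeq2 called 6 lower and the edgeR fit with the block 13 lower and 0 higher. Their median log2 fold change was -0.17, against 0.39% higher and 0.0355% lower of all tested genes called, or 7.37% and 4.18% with the block. Pfkl had adjusted p = 0.19 in this comparison and 0.00195 with the block (log2 fold change -0.38). Slc2a1 had 0.589, and 0.000858 with the block (-0.36). Between LPS and CON, 2 of the 24 genes were higher and 2 lower, or 8 and 5 with the block.

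Among the p53 targets other than Trp53inp1 the genes were mixed. Of these 23 tested, 5 were higher and 9 lower in SUR than in LPS, against 9.29% and 7.93% of all tested genes, with a median of -0.13 that turned to 0.01 on FPKM, and the block gave 7 and 10. Mdm2, which encodes the ubiquitin ligase of p53, had 164, 185 and 172 CPM in SUR, 310, 387 and 341 CPM in LPS, and 121, 127 and 110 CPM in CON (log2 fold change -1.12 for SUR against LPS, adjusted p = 0.000282, edgeR). Cdkn1a, the gene of the cell cycle inhibitor p21, had 454, 479 and 475 CPM in SUR, 647, 736 and 721 CPM in LPS, and 350, 370 and 315 CPM in CON (-0.71, adjusted p = 0.000876, edgeR). Both were highest in LPS, where Trp53inp1 was lowest. Sesn1, which encodes a stress-inducible regulator of mTORC1, had 136, 112 and 121 CPM in SUR, 47.4, 35.0 and 44.0 CPM in LPS, and 120, 85.6 and 107 CPM in CON, and was higher in SUR than in LPS by 1.41 (adjusted p = 0.000422, edgeR). Sesn1 was lowest in LPS and, within each replicate number, highest in SUR, the order of Trp53inp1.

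Between SUR and CON 1 of the 23 p53 targets was higher and 0 lower by edgeR (8 at an unadjusted p under 0.05). DESeq2 called 7 higher and 0 lower of 24, and the block 10 higher and 0 lower, with a median log2 fold change of 0.22. Between LPS and CON, 10 were higher and 3 lower, or 10 and 5 with the block.

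The NF-kappaB list serves as a contrast to Map3k14, which is not on it. All 24 of its tested genes were higher in LPS than in CON by edgeR, and 18 were lower and 0 higher in SUR than in LPS (20 at an unadjusted p under 0.05; DESeq2 called 19 lower and 0 higher, the block 21 and 0). The median log2 fold change was 2.78 for LPS against CON and -1.52 for SUR against LPS. Nfkb1, which encodes the p50 precursor, had 129, 122 and 138 CPM in SUR, 242, 244 and 258 CPM in LPS, and 134, 122 and 134 CPM in CON. Nfkb1 was thus highest in LPS, whereas Map3k14 was lowest there. Nfkb1 stood at one level in SUR and CON, but the list's median log2 fold change for SUR against CON was 1.15: edgeR called 1 of the 24 higher (20 at an unadjusted p under 0.05), DESeq2 13 and the block 20, and none of these fits called any lower.

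Further lists that touch on the roles of the genes above gave calls in both directions or few calls, beside 9.29% higher and 7.93% lower of all tested genes. Of 36 tested cell cycle genes, 1 was higher and 0 lower in SUR than in LPS (6 at an unadjusted p under 0.05; 10 higher and 5 lower with the block, and 6 and 0 with upper-quartile scaling or FPKM). Of 24 NRF2 targets, the genes that Bach1 can repress among them, 1 was higher and 4 lower in SUR than in LPS, or 2 and 7 with the block, and their median was -0.01, but 0.08 under upper-quartile scaling and 0.10 on FPKM. Of 22 genes of the TGF-beta and BMP pathway 2 were higher and 6 lower, or 5 and 8 with the block, with a median of -0.03, or 0.06 under upper-quartile scaling. Of 11 purinergic receptors and ectonucleotidases, the receptors among which are classical suramin targets, 0 were higher and 1 lower (2 at an unadjusted p under 0.05; 0 and 2 of 13 by DESeq2, 1 and 3 with the block).

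Promoter sequences from RefSeq (GRCm38.p6, 250 bases before to 50 after the annotated start) were matched for 17 of the 20 genes, 14 above and 3 below; Nuak2, Trp53inp1 and Gpcpd1 were not matched. Motifs were counted on both strands, overlapping matches allowed, beside 7910 promoters of genes with a mean of at least 5 CPM. GGGCGG was present in 11 of 14 promoters of the genes above (78.6%, against 66.9% of all), CCAAT in 5 (35.7%, against 39.2%), TATAAA in 2 (14.3%, against 6.3%), CCGGAAG in 2 (14.3%, against 21.5%), CACGTG in 1 (7.1%, against 11.1%) and TGACNNNGC in 1 (7.1%, against 15.2%). TGACGTCA, TGANTCA and the CArG box were in 0 of the 14, and in 3.6%, 4.6% and 1.2% of all promoters. With so few promoters these shares are a description.

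Motifs chosen after these counts were a kappaB site and ACGTG, the core of the element bound by hypoxia-inducible factors. The kappaB site was found in Hivep2 and Foxc1 (14.3% of 14, against 5.1% of all promoters). ACGTG was found in Tns1, Fam214a and P4ha1, that is in 2 of 14 promoters above (14.3%) and 1 of 3 below, against 27.3% of all. The promoters of P4ha1, the named enzyme gene that was lower in SUR, and of the 2 transcription factor genes with a kappaB match are shown 5′ to 3′ on the plus strand, with the ACGTG match (read here as its complement) or the kappaB match in capitals. P4ha1 lies at chr10:59323046-59323345 with the match starting at position -16 from the start, Foxc1 at chr13:31806396-31806695 with it at -75, and Hivep2 at chr10:13966129-13966428 with it at -221.
P4ha1: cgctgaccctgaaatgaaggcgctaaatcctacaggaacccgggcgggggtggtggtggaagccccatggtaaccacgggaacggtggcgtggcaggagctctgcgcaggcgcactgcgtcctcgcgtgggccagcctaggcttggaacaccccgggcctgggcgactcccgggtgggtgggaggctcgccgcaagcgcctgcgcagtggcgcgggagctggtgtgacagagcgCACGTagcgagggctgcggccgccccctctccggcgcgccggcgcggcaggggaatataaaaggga
Foxc1: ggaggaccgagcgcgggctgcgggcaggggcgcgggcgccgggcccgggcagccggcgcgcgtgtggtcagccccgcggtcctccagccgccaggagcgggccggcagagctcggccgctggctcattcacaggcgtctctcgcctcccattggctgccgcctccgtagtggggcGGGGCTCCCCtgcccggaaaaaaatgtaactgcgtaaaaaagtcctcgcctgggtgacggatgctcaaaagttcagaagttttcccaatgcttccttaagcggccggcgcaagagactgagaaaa
Hivep2: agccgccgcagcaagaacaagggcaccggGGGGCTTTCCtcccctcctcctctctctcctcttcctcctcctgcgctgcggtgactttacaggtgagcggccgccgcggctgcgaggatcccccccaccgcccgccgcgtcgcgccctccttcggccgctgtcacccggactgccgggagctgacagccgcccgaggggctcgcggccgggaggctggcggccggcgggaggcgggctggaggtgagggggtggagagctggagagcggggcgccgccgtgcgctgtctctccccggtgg
A match is a run of letters and shows no binding.

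The genes whose pattern over the 9 libraries was most like that of the genes above were sought among the other genes with a mean of at least 5 CPM, by Pearson's r of log2 CPM with the mean z score of the 17 genes. They were Bmpr2 (r = 0.98), Sik1 (0.96), Nub1 (0.952), Tcf7l2 (0.951) and Gm39469 (0.95), as a description over 9 libraries that share their groups and replicate numbers. Bmpr2, a type II receptor of bone morphogenetic proteins, had 145, 151 and 147 CPM in SUR, 129, 128 and 131 CPM in LPS, and 127, 130 and 130 CPM in CON. Its excess was even and small, with a smallest paired ratio of 1.12. Sik1, a salt-inducible kinase gene, had 37.4, 42.0 and 43.2 CPM in SUR, 27.9, 31.2 and 28.3 CPM in LPS, and 28.2, 34.4 and 29.9 CPM in CON. Among the 17 genes themselves r was highest for Bach1 at 0.97 and lowest for Bard1 at 0.407 and Tns1 at 0.531, both of which differed by library number in every group. For the 3 genes below, the most alike were Pgam1 (r = 0.918), Prkrip1 (0.904), Pfkl (0.903), Psmb2 (0.90) and Ddx24 (0.895). Pgam1 and Pfkl both encode enzymes of glycolysis; Pgam1 had 532, 558 and 533 CPM in SUR, 618, 632 and 609 CPM in LPS, and 674, 640 and 655 CPM in CON.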

How the data were processed

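RNA sequencing of MH-S cells gave 9 libraries, 3 each of SUR, LPS and CON. HISAT2 2.0.4 and build GRCm38 (mm10) are named in the submitters' processing notes. For the counting tool, its treatment of reads that match several genes, and the annotation, the answer is not given in the sources used here. Per the file headers, the deposited expected counts are unnormalized; 93.4% of values were whole, and each was rounded before the tests. Per the file headers, the deposited FPKM carry the authors' scaling for length and depth; they served as an alternative and for levels between genes. The deposited TPM summed to 999999 to 1000001 and were only checked.

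The genes, gene lists and motifs were chosen with earlier results of these data known. CPM came from library totals. Tests used the quasi-likelihood F test in edgeR 4.0.16 under R 4.3.3, with filterByExpr (11281 genes), TMM (factors 0.934 to 1.04), all 9 libraries, 1 mean per group and Benjamini-Hochberg adjustment at 0.05. It was tested on simulated data of 11210 genes for LPS against CON. Of 99 genes changed by 1 on the log2 scale, 80.8% were called, and of 100 changed by 2, 94%. Among unchanged genes, 6 were called. The simulation held no effect of the replicate number and no change smaller than 1. It therefore does not show how the test performs with paired libraries or on smaller changes. Alternatives were the replicate block, DESeq2 1.42.0, limma-voom and limma 3.58.1 on log2(FPKM + 1), upper-quartile scaling, no filter on low counts, and leaving out libraries.

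The labels number the libraries 1 to 3 in each group. The deviations of same-numbered libraries from their group means correlated at 0.43 to 0.80 over 9 pairs, so the numbers were taken to pair the libraries, on this evidence alone. Near copies were found with BLAST 2.17.0 (at least 90% identity over 300 bases) among GENCODE transcripts. Genes were named by rule: per side, the 12 with the largest smallest paired distance, those called between LPS and CON, the 2 nearest the threshold on each side of it, genes on the lists, up to 3 further genes of a list by lowest adjusted p for SUR against LPS, and the 5 most alike in pattern. Cd276, Bard1 and Runx2 and the other genes beyond these were named because every gene is accounted for. Plots were made in Python 3.11.15 with matplotlib 3.10.9.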

Additional observations from a re-analysis of the deposited data

How the results depend on the processing

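The number of genes beyond both groups depended on the rule's settings. It was 20 as chosen, 14 with TMM-scaled CPM, 20 with FPKM, 3 at a fold of 1.5, 49 at a mean CPM of at least 1, 4 when the 1.3-fold had to hold between every SUR library and every LPS and CON library, and 37 to 45 when 1 replicate number was left out, which drops part of the rule. The number of these genes found on any of the lists was 2 as chosen, 2 with TMM-scaled CPM and 3 with FPKM. It was 0 at a fold of 1.5 and 6 at a mean CPM of at least 1. With every library compared with every other it was 0, and without 1 replicate number 5 to 6.

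Of the 20 genes, 2 differed between LPS and CON, 6 with the replicate block, 1 with no filter on low counts, 4 without the libraries numbered 1, and 0 to 3 with 1 library left out. Over all genes 2069 differed, 4714 with the replicate block, 3415 without the libraries numbered 1, and 1379 (without CON 3) to 2075 with 1 library left out. Listed genes that differed numbered 14 between SUR and CON, 160 with the block, 70 by DESeq2, 129 without the libraries numbered 1, and 0 (without CON 2) to 54 (without CON 1) with 1 library left out. Between SUR and LPS they numbered 174, 331 with the block, and 131 to 190 with 1 library left out. The cause of these shifts was not tested. No fold change of Tagap, Map3k14, Trp53inp1, Nuak2, P4ha1 or Sipa1l2 between LPS and CON changed sign under any of the 16 alternatives.

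The median log2 fold change over all genes moved to -0.105 with upper-quartile scaling and -0.123 on FPKM for LPS against CON, and to 0.111 on FPKM for SUR against LPS. With 3 libraries per group, folds near 1.3 in genes of about 10 CPM lie close to the spread between libraries.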
